A study of Homo sapiens with 15 samples.

Results

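The 36 genes described here belong to the amino acid and stress arm of gene regulation in human cells. They are 9 regulators and signalling genes, 8 enzymes of amino acid and one-carbon synthesis, 6 amino acid transporters, and 13 genes of tRNA export and charging, namely XPOT and 12 aminoacyl-tRNA synthetases. They were chosen by name, with earlier results of these data known. Each was followed on the probe set that carries its symbol alone and has the highest mean signal over the arrays. By that rule 35 of the 36 were measured, out of 19775 genes with such a probe set. The methionyl-tRNA synthetase gene MARS1 lies on probe sets that carry several gene symbols, and its level is not analysed here.

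The arrays come from IMR32 cells, an established human neuroblastoma line, in which the homeodomain factor MSX1 can be switched on with doxycycline. Each of 5 groups holds 3 arrays: induced cells at t = 8, t = 24 and t = 48, control cells grown to t = 48 without doxycycline, and cells at t = 0, all carrying the inducible MSX1. The labels give no unit of time and do not say whether the line is 1 clone or whether replicates are separate cultures, so each p-value rests on a spread that may be partly or wholly technical. No array holds doxycycline-treated cells without the construct, so MSX1 and doxycycline cannot be told apart at any time, t = 48 included. The times t = 8 and t = 24 have no control of the same age, so there time in culture cannot be told apart from them either.

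When amino acids run short or unfolded protein builds up, kinases phosphorylate the translation factor eIF2. General translation then drops, while the transcription factor ATF4 is translated more. ATF4 binds DNA with C/EBP family partners and raises genes that make, import and charge amino acids. Neuroblastoma with MYCN amplification is known to draw on this programme and on the serine synthesis pathway it feeds. Because ATF4 is controlled largely at translation, its mRNA level is only a partial readout of its activity.

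The element at which ATF4 and a C/EBP partner meet has the core TGATGNAA. Searched on both strands from 250 bases before to 50 after the transcription start in RefSeq promoters of GRCh38.p14, this core was present in 14 of the 30 genes that the promoter table holds (46.7%), against 4.46% of 27305 genes and 3.62% of 35116 promoter windows. The holders were CHAC1, CEBPG, ASNS, SLC3A2, SLC7A1, SLC1A4, SLC1A5, AARS1, CARS1, GARS1, IARS1, MARS1, NARS1 and TARS1. SHMT2, LARS1, PSPH, SLC7A11, PYCR1 and YARS1 had no matching entry. Shown first are 3 holders whose mRNA fell in induced cells at t = 24 (ASNS, CEBPG, GARS1) and 2 whose mRNA did not pass the test then (AARS1, CHAC1), each read along the gene, with the core or its reverse complement in capitals.
ASNS, chr7:97872449-97872496, minus strand: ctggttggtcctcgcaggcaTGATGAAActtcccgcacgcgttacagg
CEBPG, chr19:33374051-33374098, plus strand: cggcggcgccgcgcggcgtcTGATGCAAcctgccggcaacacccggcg
GARS1, chr7:30594825-30594872, plus strand: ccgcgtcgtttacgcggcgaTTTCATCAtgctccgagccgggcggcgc
AARS1, chr16:70289666-70289713, minus strand: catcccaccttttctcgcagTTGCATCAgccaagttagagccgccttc
CHAC1, chr15:40953242-40953289, plus strand: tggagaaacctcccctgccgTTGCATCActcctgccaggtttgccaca
The capitals of ASNS and CEBPG read in the gene's own direction, and those of the other 3 on the opposite strand. In ASNS the same letters are known from promoter studies as part of the nutrient-sensing element. The E-box CACGTG, bound by factors of the MYC family such as MYCN, was in 5 of the 30 genes (16.7%), against 8.77% of all genes, and these were ATF4, ALDH18A1, SLC7A5, SLC1A5 and IARS1. The homeodomain core TAATTG was in 1 of the 30, PSAT1 (3.3%), against 8.95% of all genes. One window of each kind follows, again with the motif in capitals, because ATF4 heads the programme and PSAT1 is the single holder of the homeodomain core.
ATF4, chr22:39520457-39520502, plus strand: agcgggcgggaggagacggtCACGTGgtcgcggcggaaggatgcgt
PSAT1, chr9:78297023-78297068, plus strand: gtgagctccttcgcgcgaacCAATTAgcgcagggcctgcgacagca
These matches describe letters in a window and do not show that a factor binds there.

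Array quality was even for most measures. The 3' over 5' ratio of GAPDH, a sign of intact RNA, lay between 0.962 and 1.089, and that of ACTB between 1.182 and 1.523. The bioC hybridisation control read 94.4 on induced t = 24 replicate 1 and 110.0 on induced t = 48 replicate 3, and 326.1 to 448.7 on the other arrays. The 18S ribosomal control read 590.5 on t = 0 replicate 3. MSX1 read 96.9, 67.7 and 84.9 in induced cells at t = 48, against 46.5, 50.2 and 55.5 in control cells (log2 difference 0.65, 95% interval 0.33 to 0.97, adjusted p = 0.0163). It also read higher at t = 24, 142, 172 and 182, against 116, 122 and 95.5 at t = 0 (0.55, adjusted p = 0.0299). At t = 48, however, it averaged 83.2 in induced cells, below t = 24 (-0.96, adjusted p = 0.00207) and, without passing, below the t = 0 mean of 111 (-0.40, adjusted p = 0.0775). The control cells were below t = 0 (-1.05, adjusted p = 0.005, or 0.113 with those groups fitted alone), so the difference between induced and control cells at t = 48 was not a level above t = 0. The t = 48 call against control cells was lost without induced t = 48 replicate 1 or 3 or control t = 48 replicate 1 or 2 (adjusted p between 0.0546 and 0.0653). The t = 24 call was lost without t = 0 replicate 1 or 3 or induced t = 24 replicate 2 or 3 (adjusted p between 0.0558 and 0.11). MYCN, the amplified oncogene of this line, averaged 5323 in induced and 5483 in control cells at t = 48 (-0.04, adjusted p = 0.776), and MYC was too dim to enter the test.

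Of the markers of neuroblastoma, 7 of 8 had a probe set, and at t = 48 their signals summed to 7153.9 to 7901.5 on the induced arrays, against 6148.7 to 6462.0 on the control arrays. Single markers moved in both directions. Of the 6 bright enough to test, 2 were higher (33.3%, against 5.31% of all genes) and 1 lower (16.7%, against 3.29%) in that comparison. CHGA averaged 2163 in induced cells, against 1149 in control cells (0.90, adjusted p = 0.000715). PHOX2A averaged 1585 in induced and 976 in control cells (0.70, adjusted p = 0.000201). ISL1 was lower, at 232 in induced and 528 in control cells (-1.20, adjusted p = 0.00819). Not past the threshold were DBH (-0.96, adjusted p = 0.167), HAND2 (-0.17, adjusted p = 0.753) and GATA3 (-0.02, adjusted p = 0.909). TH, the enzyme of catecholamine synthesis, averaged between 1.13 and 7.27 over the 5 groups. Sums over 9 fibroblast markers were 1289.3 to 1419.9 at t = 0, 1717.9 to 1897.8 at t = 8, 2535.3 to 2582.0 at t = 24 and 2110.7 to 2161.3 at t = 48 in induced cells, and 1567.6 to 1686.0 in control cells. Of these 9 markers, 4 were higher at t = 24 than at t = 0 (44.4%, against 5.96% of all genes) and 0 lower (4.87% of all genes). COL1A1 averaged 919 at t = 24 and 349.6 at t = 0, PDGFRA 1198 and 742, LUM 160.0 and 9.73, and COL3A1 76.1 and 34.8. The other 5 did not pass, and their differences were -0.91 (TAGLN), -0.05 (THY1), -0.01 (ACTA2), 0.27 (DCN) and 0.74 (PDGFRB). Against control cells at t = 48, LUM, COL3A1 and PDGFRA were higher (33.3%, against 5.31% of all genes). In that comparison 5 of the 9 differences were negative (55.6%, against 52.1% of all genes). That PDGFRA call was lost without induced t = 48 replicate 1 or 2 or control t = 48 replicate 1, 2 or 3 (adjusted p between 0.0667 and 0.122). The 4 blood and endothelial markers summed to at most 77.7, the 4 epithelial markers to at most 27.1, and the 2 measured of 4 Schwann cell markers to 127.6 to 258.5.

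The main movement of the amino acid and stress genes was a shallow, broad fall at t = 24. With limma across 12868 genes and a threshold of 0.05 on the adjusted p, 11 of the 35 genes were lower at t = 24 than at t = 0 and 0 were higher. Of all genes tested, 4.87% were called lower and 5.96% higher in that comparison. The log2 difference was negative for 32 of the 35 (91.4%), against 51.9% of all genes, with a median of -0.24 against -0.01. Because the list was chosen with earlier results of these data known, these contrasts with all genes are a description and not a test. The falls were modest, between 0.673 (PHGDH) and 0.805 (CEBPG) of the t = 0 level among the 11 called. Changes are given on the scale log2(signal + 5.16), which understates those of dim genes, and in a bulk extract fewer cells and less RNA per cell cannot be told apart.

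All 11 genes called at t = 24 were bright ones. Among the 6434 genes brighter than the median gene tested, 7.29% were called lower, while 11 of the 27 listed genes in that range were (40.7%), with medians of -0.03 and -0.26. On the 3 arrays of t = 24 taken singly, the median difference of the 35 genes from the t = 0 mean was -0.32, -0.21 and -0.17, with 30, 32 and 27 of the 35 below it, while the median over all genes lay between -0.02 and 0.01. The array with the lowest median, replicate 1, is one of the pair with weak hybridisation controls. Without that pair, 7 of the 35 were called lower, and leaving out any single array of t = 0 or t = 24 gave 6 (without t = 24 replicate 3) to 9 (without t = 24 replicate 2). When only the 6 arrays of t = 0 and t = 24 entered the fit, 0 of the 35 passed, and 474 in place of 1394 genes passed over the whole table. Fibroblast marker sums were highest at t = 24, and their part in the fall was not tested.

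**Figure D1:**
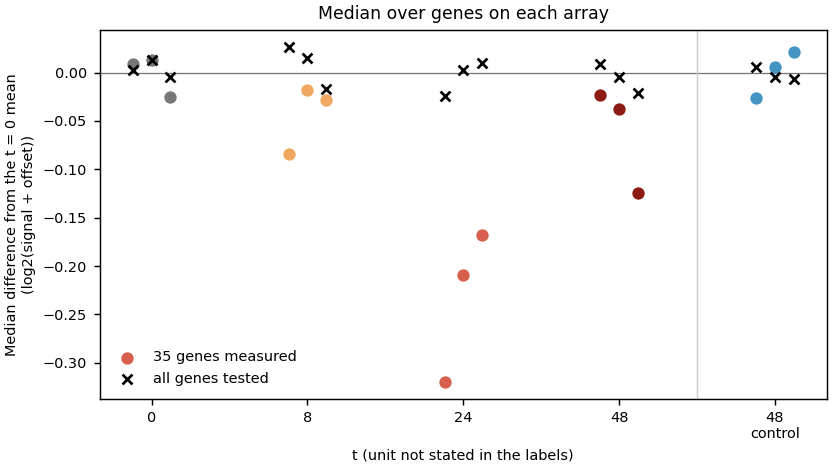
Median over genes of the log2(signal + offset) difference of each array from the t = 0 mean, for the 35 genes measured (coloured points) and for all genes tested (crosses), by t and group. The 3 induced arrays at t = 24 lie at -0.32, -0.21 and -0.17, below every other array, while the crosses stay near 0.

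Other time points moved fewer of these genes. At t = 8, 0 of the 35 passed in either direction by limma, where 1.10% of all genes were called higher and 0.995% lower. At an unadjusted p under 0.05, 0 were higher and 2 lower. The groups of t = 24 and t = 8 differed in 5 of the 35, all lower at t = 24, with 2.84% of all genes called lower and 3.46% higher. At t = 48, 4 of the 35 were lower than at t = 0 and 0 higher, against 8.20% lower and 9.93% higher over all genes, so their share of 11.4% was close to the background. Between induced and control cells at t = 48, 2 of the 35 were lower (5.7%) and 0 higher, with 3.29% of all genes lower and 5.31% higher. From t = 24 to t = 48, 3 of the 35 were higher and 0 lower, with 2.42% higher and 1.62% lower among all genes. Control cells at t = 48 against t = 0 gave 0 called of 35 by limma, with 0.482% of all genes higher and 0.365% lower. At an unadjusted p under 0.05, 3 of the 35 were higher and 3 lower. A moderated F-test over the induced time course called 11 of the 35 (20.2% of all genes), namely ASNS, SLC3A2, CEBPB, SHMT2, PHGDH, PSAT1, SLC7A1, SARS1, CARS1, TRIB3 and CEBPG.

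Among the 9 regulators and signalling genes, 2 fell at t = 24 (22.2%, against 4.87% of all genes). They were CEBPB and CEBPG, and 7 did not pass. CEBPB encodes a leucine zipper factor that pairs with ATF4 and also acts in inflammation. Its signals were 563, 546 and 575 at t = 0, 482, 507 and 463 at t = 8, 409, 458 and 404 at t = 24 and 552, 609 and 588 at t = 48 in induced cells. In control cells it read 506, 535 and 547. All arrays of t = 24 read below all arrays of t = 0 and of t = 48. CEBPB was lower at t = 24 than at t = 0 (log2 difference -0.40, 95% interval -0.56 to -0.24, adjusted p = 0.00412). By t = 48 it had risen above the t = 24 level (0.46, adjusted p = 0.00298), in 2 comparisons that share the arrays of t = 24. Against control cells at t = 48 its difference was 0.14, with an interval of -0.02 to 0.30 and an adjusted p of 0.281.

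CEBPG, a C/EBP family member that heterodimerises with ATF4 and binds amino acid genes with it, read 395, 377 and 378 at t = 0, 361, 345 and 328 at t = 8, 299, 319 and 305 at t = 24 and 320.4, 362 and 335 at t = 48 in induced cells. The control arrays gave 399.9, 365 and 354. The arrays of t = 24 all lay below those of t = 0 (log2 difference -0.31, 95% interval -0.47 to -0.15, adjusted p = 0.0182). The call was lost without t = 0 replicate 1 or induced t = 24 replicate 1 or 3 (adjusted p between 0.0539 and 0.0599). Against control cells at t = 48 the difference was -0.13 (adjusted p = 0.301).

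ATF4 itself, whose protein drives the programme, did not pass in any comparison. It read 2174, 1921 and 1871 at t = 0, 1789.8, 1929 and 1757 at t = 8, 1602, 1929 and 1794 at t = 24 and 2247, 2104 and 1816 at t = 48 in induced cells. Control cells at t = 48 read 2107, 1992 and 2164. The groups overlapped at every time. Its log2 difference at t = 24 was -0.16, with an interval of -0.38 to 0.05 and an adjusted p of 0.322. Against control cells at t = 48 it was -0.03 (-0.24 to 0.19, adjusted p = 0.899).

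Its stress targets were dim or variable. DDIT3, which encodes the death-linked factor CHOP, averaged 82.6 ± 10.9 at t = 24, against 73.9 ± 29.3 at t = 0 (SD, n = 3 each; 0.20, adjusted p = 0.591). TRIB3, a pseudokinase that damps ATF4 signalling, read 88, 74.4 and 86.8 in induced cells at t = 48, against 53.4, 50.7 and 64.3 at t = 24 (log2 difference 0.53, 95% interval 0.22 to 0.83, adjusted p = 0.0593). It did not pass there, nor against t = 0 (0.36, adjusted p = 0.092), though its F-test over the course did (adjusted p = 0.0458). At t = 48 it averaged 83.1 in induced and 81.4 in control cells (0.04, adjusted p = 0.901). Control cells differed from t = 0 by 0.33 (adjusted p = 0.403), so the rise was not particular to induced cells. CHAC1, which degrades glutathione, averaged 10.4 at t = 24 and 17.8 at t = 0, with an interval of -1.40 to 0.21 around a difference of -0.59 that could hide a large change. ATF5, a leucine zipper factor related to ATF4, was as uncertain (-0.03, interval -0.69 to 0.64). SESN2, a leucine sensor that restrains mTORC1, differed by -0.10 (adjusted p = 0.809) and VLDLR, a lipoprotein receptor, by 0.07 (adjusted p = 0.753).

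**Figure D2:**
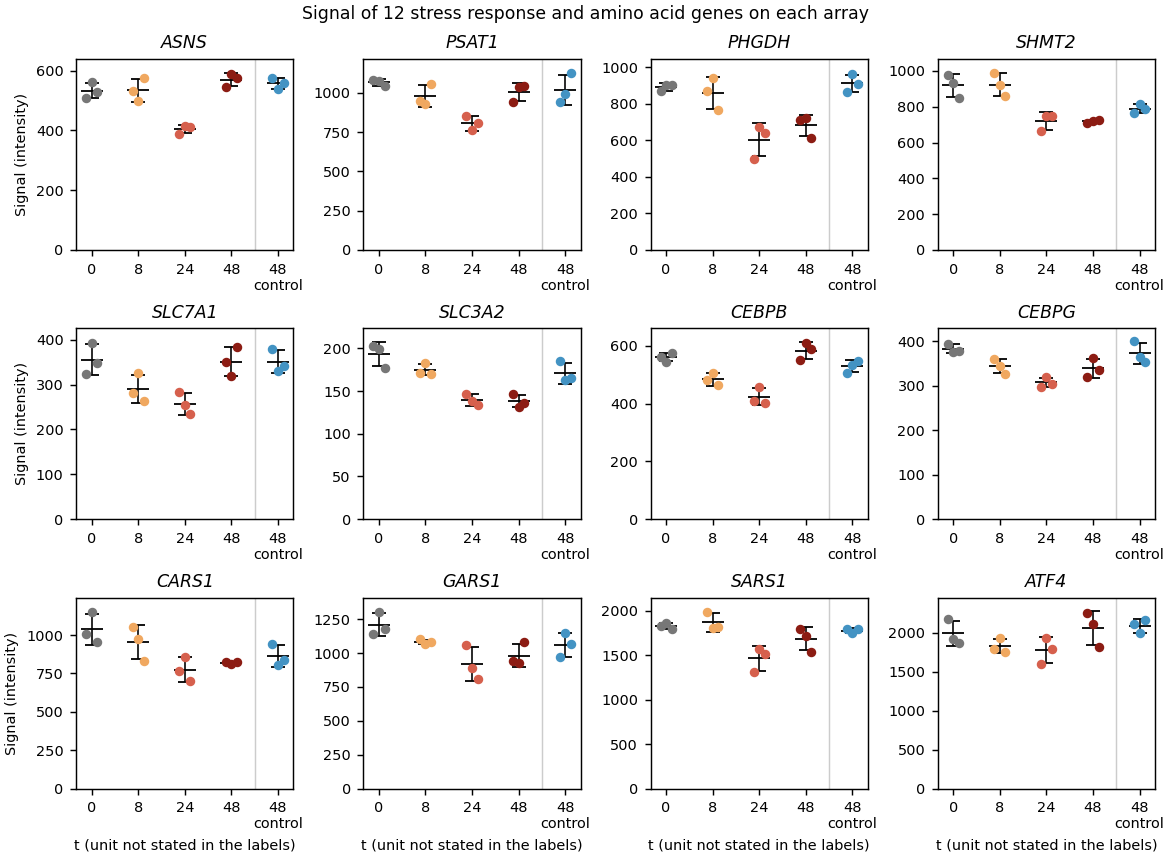
Signal (intensity, linear axis from 0) on each array for the 11 genes called lower at t = 24 and for ATF4, with points for the 3 replicates and bars for the mean and SD, by t in induced cells and, right of the grey line, in control cells at t = 48. ASNS, CEBPB and SLC7A1 stand back at the t = 0 level at t = 48, while PHGDH, SHMT2 and SLC3A2 stay below it.

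Of the 8 enzymes of amino acid and one-carbon synthesis, 4 were lower at t = 24 (50%, against 4.87% of all genes), with a median of -0.32. ASNS makes asparagine from aspartate and glutamine and is the classic ATF4 target. Its signals were 510.0, 561 and 529.8 at t = 0, 531, 498 and 574 at t = 8, 389, 415 and 411 at t = 24 and 545, 589.5 and 575 at t = 48 in induced cells. In control cells it read 577, 539 and 559. The 3 arrays of t = 24 lay below all other 12. ASNS was lower at t = 24 than at t = 0 (log2 difference -0.39, 95% interval -0.55 to -0.23, adjusted p = 0.00463), and lower than at t = 8 (-0.39, adjusted p = 0.00847). At t = 48 it was above the t = 24 level (log2 difference 0.49, 95% interval 0.33 to 0.65, adjusted p = 0.00187). At t = 48 induced and control cells differed by 0.03, within an interval of -0.13 to 0.19 (adjusted p = 0.844). The second ASNS probe set read 2.37 on average, in the range of background, and gave no call.

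The serine pathway, which turns a glycolytic intermediate into serine, runs through PHGDH, PSAT1 and PSPH in that order. PHGDH, its first and rate-controlling enzyme, read 869, 904 and 903 at t = 0, 869.9, 939 and 764 at t = 8, 499, 672 and 639 at t = 24 and 708, 721 and 614 at t = 48 in induced cells. The control arrays gave 865, 962 and 905. Every array of t = 24 and of induced t = 48 lay below every array of t = 0 and of control cells. PHGDH fell at t = 24 (log2 difference -0.57, 95% interval -0.82 to -0.32, adjusted p = 0.00762) and stood below t = 0 at t = 48 as well (-0.39, adjusted p = 0.0358). At t = 48 it averaged 681 ± 58.4 in induced cells, against 910.3 ± 48.7 in control cells (SD, n = 3 each; log2 difference -0.42, 95% interval -0.67 to -0.17, adjusted p = 0.0433). The call against control cells was lost without induced t = 48 replicate 1, 2 or 3 or control t = 48 replicate 1, 2 or 3 (adjusted p between 0.0682 and 0.153). That against t = 0 at t = 48 was lost without t = 0 replicate 1, 2 or 3 or induced t = 48 replicate 1, 2 or 3 (adjusted p between 0.0538 and 0.129). The t = 24 call held without each single array. Against t = 8, t = 24 was lower too (-0.51, adjusted p = 0.023), a call lost without induced t = 8 replicate 1 or 2 or induced t = 24 replicate 1 (adjusted p between 0.072 and 0.0848).

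PSAT1, the transaminase of the second step, read 1084, 1077 and 1041 at t = 0, 948, 926 and 1057 at t = 8, 854, 760.2 and 805 at t = 24 and 942, 1035 and 1046 at t = 48 in induced cells. Control cells at t = 48 read 943, 992 and 1127. All arrays of t = 24 lay below those of t = 0 (log2 difference -0.40, 95% interval -0.59 to -0.22, adjusted p = 0.0105). Its second probe set was lower too (-0.45, adjusted p = 0.00586). From t = 24 to t = 48 the difference of 0.32 missed the threshold (adjusted p = 0.0641), and induced and control cells at t = 48 differed by -0.02 (interval -0.20 to 0.17). PSPH, the phosphatase that ends the pathway, averaged 143 ± 21.6 at t = 24 and 132 ± 33.8 at t = 0 (SD, n = 3 each; 0.14, adjusted p = 0.673), so its groups overlapped where those of PHGDH and PSAT1 did not. Whether PSPH differed from the other 2 was not tested.

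SHMT2 uses serine in mitochondria to make glycine and a one-carbon unit. It read 976, 933 and 851 at t = 0, 989, 922 and 861 at t = 8, 663, 749 and 748 at t = 24 and 709.5, 721 and 726 at t = 48 in induced cells. In control cells it read 763, 815 and 788. Both t = 24 and induced t = 48 lay wholly below t = 0 (log2 difference -0.35, 95% interval -0.53 to -0.18, adjusted p = 0.0148 at t = 24, and -0.35, adjusted p = 0.0102 at t = 48). It was also lower at t = 24 than at t = 8 (-0.36, adjusted p = 0.022). Control cells at t = 48 averaged 789, against 719 in induced cells, a difference that did not pass (-0.13, adjusted p = 0.346). The control arrays also lay wholly below t = 0, without passing (-0.22, adjusted p = 0.302). The induced t = 48 call against t = 0 was lost on the second probe set and with the compared groups fitted alone. The t = 24 call was lost without t = 0 replicate 1 or induced t = 24 replicate 1 (adjusted p between 0.0564 and 0.0567). The call against t = 8 was lost without induced t = 8 replicate 1 or 2 or induced t = 24 replicate 1 (adjusted p between 0.0628 and 0.0839).

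MTHFD2, the next mitochondrial folate enzyme, averaged 2360.4 ± 182 at t = 24, against 2899 ± 144 at t = 0 (SD, n = 3 each), without overlap, and just missed the threshold (log2 difference -0.30, 95% interval -0.50 to -0.10, adjusted p = 0.0556). PYCR1, which forms proline, read 536, 515 and 485 in induced cells at t = 48, against 650.2, 647 and 571 in control cells, all lower but not past the threshold (-0.28, adjusted p = 0.0703). ALDH18A1, which starts proline synthesis from glutamate, differed by 0.01 in the same comparison and by -0.03 at t = 24 against t = 0 (adjusted p = 0.917).

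Of the 6 amino acid transporters, 2 were lower at t = 24 (33.3%, against 4.87% of all genes). All 6 had negative differences, against 51.9% of all genes, with a median of -0.38. SLC3A2 encodes the heavy chain that carries SLC7A5 and SLC7A11 to the cell surface. Its signals were 203, 199 and 177 at t = 0, 172, 182 and 171 at t = 8, 147, 139 and 134 at t = 24 and 146, 132 and 137 at t = 48 in induced cells. The control arrays gave 185, 162 and 165. The arrays of t = 24 and of induced t = 48 all lay below those of t = 0, t = 8 and the control cells. SLC3A2 was lower than t = 0 at t = 24 (log2 difference -0.45, 95% interval -0.63 to -0.28, adjusted p = 0.00339) and at t = 48 (log2 difference -0.47, 95% interval -0.64 to -0.29, adjusted p = 0.00195). The t = 48 call held under all 20 alternatives run for it. Those that change the probe set could not alter its signal, because it has only 1 probe set. SLC3A2 was also lower in induced than in control cells at t = 48 (log2 difference -0.30, 95% interval -0.47 to -0.12, adjusted p = 0.0393), a call lost without control t = 48 replicate 1, 2 or 3 or induced t = 48 replicate 2 or 3 (adjusted p between 0.0649 and 0.149). Against t = 8 the difference of t = 24 was -0.31 (adjusted p = 0.0393), and that call was lost without induced t = 8 replicate 1, 2 or 3 or induced t = 24 replicate 1, 2 or 3 (adjusted p between 0.0589 and 0.121).

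SLC7A1, an importer of arginine and lysine, read 325, 393 and 348 at t = 0, 282, 325 and 264 at t = 8, 283, 255 and 234 at t = 24 and 351, 319 and 383 at t = 48 in induced cells. Control cells at t = 48 read 379.8, 331 and 342. Its level at t = 24 lay below every array of t = 0 and of t = 48 (log2 difference -0.46, 95% interval -0.70 to -0.22, adjusted p = 0.0194 against t = 0, and 0.44, adjusted p = 0.0442 for t = 48 against t = 24). In induced and control cells at t = 48 it averaged 351 and 351 (-0.00, interval -0.24 to 0.24). The call at t = 24 was lost without t = 0 replicate 2 or 3 or induced t = 24 replicate 2 or 3 (adjusted p between 0.0502 and 0.0764). The return at t = 48 was lost without induced t = 48 replicate 1, 2 or 3 or induced t = 24 replicate 2 or 3 (adjusted p between 0.0517 and 0.179). SLC7A5, the large neutral amino acid carrier, read 254, 240.1 and 232 in induced cells at t = 48, against 316, 327 and 301 in control cells, lower on all arrays but not past the threshold (log2 difference -0.37, 95% interval -0.76 to 0.02, adjusted p = 0.233). SLC1A4, a carrier of serine and alanine, showed the same order, with 81.5, 81.2 and 71.1 in induced and 119, 98.1 and 83.9 in control cells (-0.33, adjusted p = 0.0875). SLC7A11, the cystine importer, was dim and scattered (21.5, 15.4 and 10.9 at t = 24, against 19.2, 48.4 and 25.5 at t = 0, -0.73, adjusted p = 0.225). SLC1A5, the main glutamine carrier, averaged 321 in induced and 316 in control cells (0.02, adjusted p = 0.912).

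Aminoacyl-tRNA synthetases load each tRNA with its amino acid, and XPOT carries tRNA out of the nucleus. Of these 12 measured genes, 3 were lower at t = 24 (25%, against 4.87% of all genes), namely CARS1, GARS1 and SARS1. On the probe sets used, all 12 had a negative difference, against 51.9% of all genes, and the median was -0.21. Of those with a second probe set, LARS1 alone was positive on it (0.15, adjusted p = 0.588). CARS1, which charges cysteine tRNA, read 1004, 1149.7 and 954 at t = 0, 1049, 975 and 833 at t = 8, 762, 859.5 and 698 at t = 24 and 822, 809.6 and 822 at t = 48 in induced cells. In control cells it read 944, 807 and 839. GARS1, for glycine, read 1143, 1303 and 1176 at t = 0, 1101, 1066 and 1079 at t = 8, 1057, 891 and 806 at t = 24 and 944, 924 and 1078 at t = 48 in induced cells. The control arrays gave 970.3, 1148 and 1064. SARS1, for serine, read 1832, 1865 and 1792 at t = 0, 1994, 1807 and 1818 at t = 8, 1312, 1577 and 1517 at t = 24 and 1800.1, 1717 and 1543 at t = 48 in induced cells. Control cells at t = 48 read 1797, 1749 and 1794. In each of the 3, every array of t = 24 lay below every array of t = 0.

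The calls for these 3 synthetases were close to the threshold. CARS1 differed by -0.42 (interval -0.66 to -0.18, adjusted p = 0.0275), and lost its call without t = 0 replicate 1 or 2 or induced t = 24 replicate 1 or 3 (adjusted p between 0.0546 and 0.105). GARS1 differed by -0.40 (interval -0.63 to -0.17, adjusted p = 0.0305), and lost its call without t = 0 replicate 2 or 3 or induced t = 24 replicate 2 or 3 (adjusted p between 0.0653 and 0.109). SARS1 differed by -0.32 (interval -0.50 to -0.14, adjusted p = 0.0298), and lost its call without t = 0 replicate 1, 2 or 3 or induced t = 24 replicate 1 or 3 (adjusted p between 0.0533 and 0.105). SARS1 was also lower at t = 24 than at t = 8 (-0.35, adjusted p = 0.0299), lost without induced t = 8 replicate 1, 2 or 3 or induced t = 24 replicate 1 or 3 (adjusted p between 0.0555 and 0.109).

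WARS1, the tryptophan enzyme that interferon also raises, read 212, 195 and 167 in induced cells at t = 48, against 253, 255 and 255 at t = 0, and fell just past the threshold (log2 difference -0.41, 95% interval -0.69 to -0.12, adjusted p = 0.0486). That call was lost without t = 0 replicate 1, 2 or 3 or induced t = 48 replicate 2 or 3 (adjusted p between 0.0909 and 0.171). In control cells at t = 48 WARS1 read 227, 204 and 228, also below every array of t = 0. YARS1 (-0.26, adjusted p = 0.0851) and AARS1 (-0.24, adjusted p = 0.124), for tyrosine and alanine, were below t = 0 on all arrays of t = 24 without passing. EPRS1, IARS1, LARS1, NARS1, TARS1 and XPOT lay between -0.17 (NARS1) and -0.00 (EPRS1) at t = 24, with adjusted p from 0.234 to 0.991. No gene of the 12 passed between induced and control cells at t = 48, where the lowest adjusted p by limma was 0.272 and 0 passed at an unadjusted p under 0.05.

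**Figure D3:**
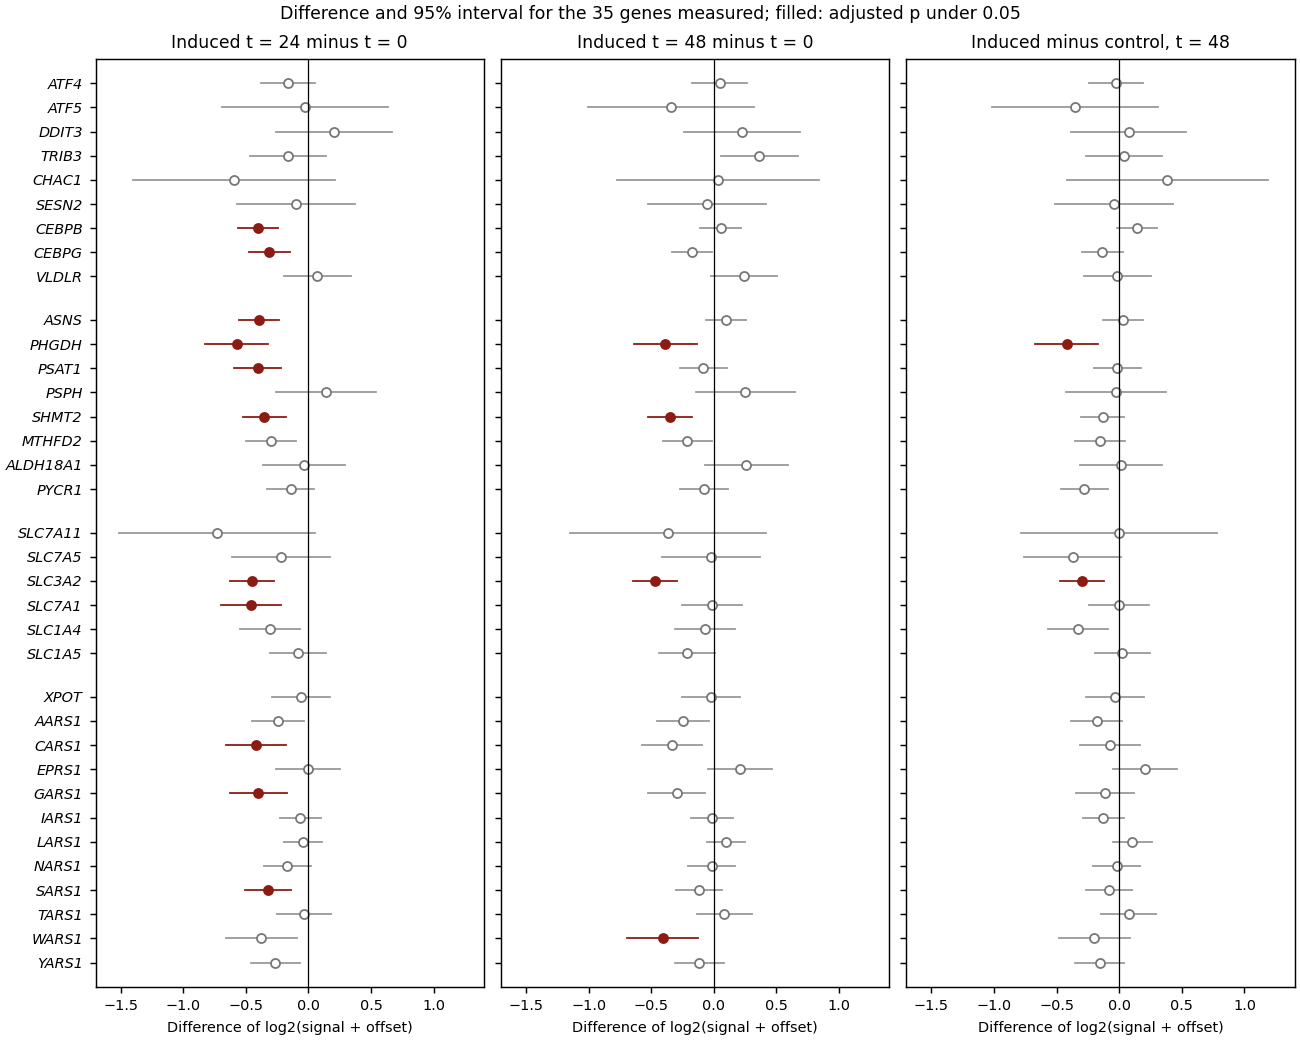
Difference of log2(signal + offset) with its 95% interval for each of the 35 genes, grouped as regulators, synthesis, transporters and tRNA charging from top to bottom, for induced t = 24 minus t = 0, induced t = 48 minus t = 0, and induced minus control at t = 48. Filled points passed an adjusted p of 0.05, which 11, 4 and 2 genes did, all to the left of 0.

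By t = 48 part of the fall was gone. ASNS, CEBPB and SLC7A1 were higher than at t = 24, and 29 of the 35 genes had positive differences for that step, with a median of 0.14 against -0.01 over all genes. The fall and this step share the arrays of t = 24, so they are not independent. The SLC7A1 call was lost on leaving out single arrays, as given above. PHGDH, SHMT2 and SLC3A2, called at t = 24, were also below t = 0 at t = 48, as was WARS1, which had not passed at t = 24 (adjusted p = 0.0898). The t = 48 calls of PHGDH and WARS1 were lost on leaving out single arrays, as given above. That of SHMT2 was lost on its second probe set. The control arrays of SHMT2 and WARS1 also lay below every array of t = 0. The comparison with control cells of the same age, the one that holds time in culture constant, left PHGDH and SLC3A2 (5.7%, against 3.29% of all genes lower). Both of these calls were lost on leaving out single arrays, as given above. In that comparison 25 of the 35 differences were negative (71.4%, against 52.1% of all genes), with a median of -0.04, against -0.01 over all genes. The 18S control lay at 114.0 to 183.2 on the induced t = 48 arrays, against 73.2 to 94.3 on the control arrays, and the 3' over 5' ratio of ACTB was highest on induced t = 48 replicates 1 and 2 (1.523 and 1.41). The part of either in these results was not tested.

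Where a second probe set exists, it was read for the fall at t = 24. It was present for 21 of the 35 genes, and using it in place of the brighter one left 9 genes lower, with a median of -0.22. Among the 9, CEBPB, GARS1, PHGDH and SLC3A2 have no second probe set and were not rechecked. The median likewise includes the genes with 1 probe set. CEBPG (-0.35, adjusted p = 0.0161) and PSAT1 stayed called. XPOT (-0.46, adjusted p = 0.00522), WARS1 (-0.50, adjusted p = 0.0161) and SLC1A4 (-0.37, adjusted p = 0.0203) passed on the second probe set and not on the first, while the XPOT difference on the brighter probe set was -0.06. ASNS, CARS1 (-0.28), SARS1 (-0.15), SHMT2 (-0.24) and SLC7A1 (-0.25) did not pass on the second. The level of XPOT at t = 24 is therefore uncertain.

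Holders of the TGATGNAA core were set beside the other genes that the promoter table holds. At t = 24, 6 of 13 measured holders were lower, with a median of -0.31, and 4 of 16 genes without the core, with a median of -0.16. Of all genes tested, 4.87% were called lower in that comparison. Of the 5 holders of CACGTG, 0 were called by limma at t = 24, with a median of -0.08, against 10 of the 24 others. At t = 48 against t = 0, holders of TGATGNAA and the genes without it had medians of -0.07 and -0.02. These counts describe few genes and were not tested.

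Genes around the programme moved in both directions. Of the 12 tested among 19 further ATF4 targets, 3 were higher at t = 24 (25%, against 5.96% of all genes) and 0 lower. DDIT4, an inhibitor of mTORC1 that hypoxia and glucocorticoids also raise, read 981, 1162 and 1302 at t = 24, against 279, 228 and 332 at t = 0 (log2 difference 2.02, 95% interval 1.72 to 2.33, adjusted p = 2.74e-06). At t = 48 it read 889, 920.1 and 1063 in induced cells, against 297, 338 and 358 in control cells (log2 difference 1.52, 95% interval 1.21 to 1.82, adjusted p = 2.62e-05). JDP2, a leucine zipper repressor, read 73.9, 67.2 and 71.3 at t = 24, against 18.5, 40.2 and 15.9 at t = 0 (1.42, adjusted p = 0.031). The cytokine gene TSLP averaged 111 and 56.7 (0.92, adjusted p = 0.00107). The JDP2 call was lost without t = 0 replicate 1 or 3 or induced t = 24 replicate 1, 2 or 3 (adjusted p between 0.0663 and 0.109). Of the 16 genes of eIF2 control, 2 were higher (12.5%, against 5.96% of all genes) and 3 lower (18.8%, against 4.87%) at t = 24. Higher were EIF2AK4, the kinase GCN2 that senses uncharged tRNA (0.43, adjusted p = 0.0369), and IMPACT, which restrains it (0.42, adjusted p = 0.0049). The lower ones included the eIF2 subunit genes EIF2S1 (-0.35, adjusted p = 0.0245) and EIF2S2 (-0.36, adjusted p = 0.0293). The EIF2AK4 call was lost without t = 0 replicate 1, 2 or 3 or induced t = 24 replicate 1 or 3 (adjusted p between 0.059 and 0.135). The EIF2S1 call was lost without induced t = 24 replicate 1 or 3 or t = 0 replicate 2 or 3 (adjusted p between 0.0545 and 0.0918). The EIF2S2 call was lost without induced t = 24 replicate 1 or 3 or t = 0 replicate 2 or 3 (adjusted p between 0.0561 and 0.103). At t = 48 against control cells, 0 of the 16 passed by limma, with 5 higher and 2 lower at an unadjusted p under 0.05.

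Some chaperones of the endoplasmic reticulum were also lower at t = 24. Of 17 genes of the IRE1 and ATF6 arms of the unfolded protein response, 4 were lower at t = 24 (23.5%, against 4.87% of all genes) and 0 higher, with a median of -0.18. SDF2L1 read 103, 159 and 146 at t = 24, against 245, 269 and 286 at t = 0 (log2 difference -0.97, 95% interval -1.34 to -0.60, adjusted p = 0.00328). MANF, a secreted stress protein, averaged 679.6 and 1111 (-0.71, adjusted p = 0.000856). HSPA5, the main chaperone of that compartment, averaged 2001 and 2694 (-0.43, adjusted p = 0.0253), and HSP90B1 871 and 1149.8 (-0.41, adjusted p = 0.0409). The call of HSPA5 was lost without t = 0 replicate 1 or 3 or induced t = 24 replicate 1 (adjusted p between 0.0736 and 0.0991), and that of HSP90B1 without t = 0 replicate 1 or 3 or induced t = 24 replicate 1 or 2 (adjusted p between 0.0714 and 0.146). Against control cells at t = 48, 1 of the 17 passed and was higher, ATF6 (0.35, adjusted p = 0.00855), a share of 5.9% close to the 5.31% of all genes.

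Other charging and folate genes were read for the same fall. Of 7 tested among 11 other cytosolic synthetase and scaffold genes, FARSA, a subunit of the phenylalanine enzyme, was lower at t = 24 (354 against 499, -0.49, adjusted p = 0.00999), or 14.3% against 4.87% of all genes. None of 15 mitochondrial synthetases passed by limma at t = 24 (1 lower at an unadjusted p under 0.05), and their median was -0.08. Among 10 other folate and glycine enzymes, 2 were lower (20%), the glycine cleavage gene GLDC (-0.53, adjusted p = 0.00295) and the thymidylate synthase gene TYMS (-0.46, adjusted p = 0.0049). NQO1, a target of the oxidative stress factor NRF2, read 64.4, 83.1 and 103 in induced cells at t = 48, against 135, 180.2 and 139 in control cells (log2 difference -0.84, 95% interval -1.19 to -0.48, adjusted p = 0.00775). It was the 1 of 8 NRF2 targets that passed there (12.5%, against 3.29% of all genes lower). Against t = 0, 4 of the 8 were lower in induced cells at t = 48 (50%, against 8.20% of all genes), namely NQO1 (-1.43, adjusted p = 0.000101), HMOX1 (-0.70, adjusted p = 0.0469), the glutathione synthesis gene GCLM (-0.48, adjusted p = 0.00932) and ME1 (-0.37, adjusted p = 0.0183). The HMOX1 call was lost without t = 0 replicate 1, 2 or 3 or induced t = 48 replicate 2 or 3 (adjusted p between 0.0503 and 0.171), and the ME1 call without t = 0 replicate 1 or induced t = 48 replicate 1 (adjusted p between 0.0542 and 0.0647). In control cells at t = 48 against t = 0, 0 of the 8 passed by limma, with 2 lower at an unadjusted p under 0.05. Of 9 p53 targets, 1 was higher and 1 lower at t = 24 (11.1% each, against 5.96% and 4.87% of all genes). TP53INP1 was higher at t = 24 (1.16, adjusted p = 0.00543) and against control cells at t = 48 (0.90, adjusted p = 0.0258), and CDKN1A was lower at t = 24 (-0.56, adjusted p = 0.0172). The t = 48 call of TP53INP1 was lost without induced t = 48 replicate 1, 2 or 3 or control t = 48 replicate 1 or 2 (adjusted p between 0.0529 and 0.101), and the CDKN1A call without t = 0 replicate 1 or induced t = 24 replicate 1 (adjusted p between 0.0639 and 0.0716).

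**Figure D4:**
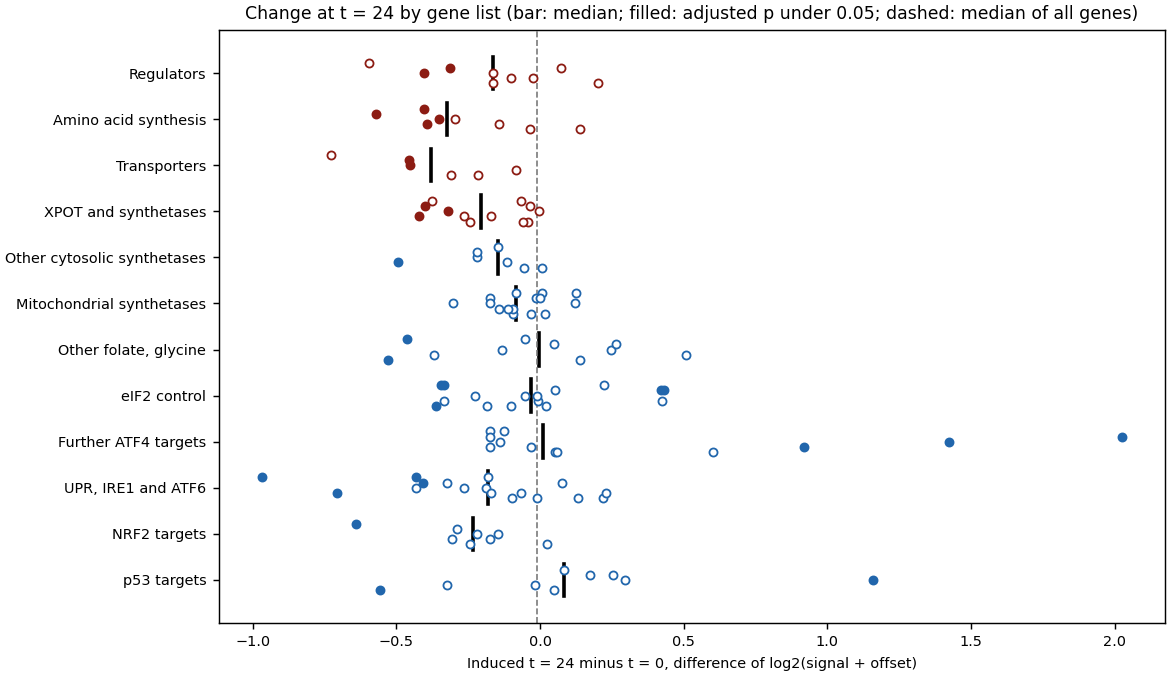
Induced t = 24 minus t = 0 difference of log2(signal + offset) for each gene of the 4 role groups (red) and of 8 related lists (blue), with a bar at each list's median, filled points for an adjusted p under 0.05 and a dashed line at the median of all genes. Transporters (-0.38) and amino acid synthesis (-0.32) have the lowest medians, and the further ATF4 targets hold DDIT4 (2.02), JDP2 (1.42) and TSLP (0.92) on the right.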

How the data were processed

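Total RNA of IMR32 cells was measured on 15 Affymetrix arrays, 3 in each of 5 groups. The deposited values are linear intensities, which the authors made with GCOS software and the MAS5 algorithm, per the submitters' processing notes (versions and settings not given in the sources used here). Each array's mean after trimming 2 percent from each end was 100.01, so arrays had been scaled as a whole. The number of arrays limits the precision, and differences in the spread of low signals between arrays remain.

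Of 54675 probe sets, 62 were array controls, 41097 carried 1 gene symbol (41043 found by Entrez ID in RefSeq GRCh38.p14, which updated the symbols) and 1801 several. For each gene the single-symbol probe set with the highest mean signal was used. After adding an offset of 5.16, the mean lower quartile of signal, log2 values were taken. Genes that reached the array median on at least 3 arrays were tested (12868). All 35 genes passed this filter. Group differences came from limma 3.58.1 (R 4.3.3), with 1 lmFit and eBayes model of the 5 groups over all 15 arrays, two-sided p and Benjamini-Hochberg adjustment over the 12868 genes at 0.05. The fit was tested on simulated data. The control probe sets of bioC and 18S were averaged. Figures used matplotlib 3.10.9.

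The 36 genes and all lists were chosen with earlier results of these data known. Any of the 36 could be named, and from each other list up to 4 genes a comparison, those with the largest change past the threshold without overlap of groups. Alternatives changed the offset (1 and 16), the array scaling, the dim-gene filter, the choice of probe set, the variance model, the threshold (0.01) and the arrays in the fit, and added a block for the replicate number. Deviations of same-numbered arrays correlated at -0.684 to 0.431 over the 5000 probe sets checked (median -0.006, 12 of 30 over 0.1). Those of differently numbered arrays correlated at -0.628 to 0.777 (median -0.002, 16 of 60 over 0.1). With medians this close, replicate numbers were not taken as pairs. The value of 0.777 joined induced t = 24 replicate 1 and induced t = 48 replicate 3, the pair with weak hybridisation controls. Its source was not tested.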

Additional observations from a re-analysis of the deposited data

Results flagged for a closer look

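Changes from t = 0 were compared between time points and between induced and control cells. The shared t = 0 arrays cancel, so each value is the plain comparison already given above and not a further test. The calls listed for PHGDH, SLC3A2, SHMT2, SARS1 and SLC7A1 were each lost on leaving out single arrays, as given above. The change between t = 0 and t = 48 was lower in induced than in control cells for PHGDH (-0.42) and SLC3A2 (-0.30). The change from t = 0 was lower at t = 24 than at t = 8 for ASNS (-0.39), PHGDH (-0.51), SHMT2 (-0.36), SLC3A2 (-0.31) and SARS1 (-0.35). It was higher at t = 48 than at t = 24 for CEBPB (0.46), ASNS (0.49) and SLC7A1 (0.44). Each value is a difference of log2(signal + offset) with its adjusted p in the text above, and t = 8 and t = 24 have no control cells of the same age.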

How the results depend on the processing

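Counts of the 35 genes past the threshold moved with several choices, and 0 called genes changed direction under any alternative. For induced against control cells at t = 48 the count of 2 became 0 at an adjusted p under 0.01, 0 with the compared groups fitted alone, 0 with no filter on dim genes and 0 once the 2 arrays of weak hybridisation were dropped. For t = 24 against t = 0 the 11 became 4, 0, 7 and 7 under the same 4 changes, and 14 with arrays centred on their median. For t = 48 against t = 0 the 4 became 1 at 0.01, 1 with the groups alone, 2 with no filter and 9 with median centring. For t = 24 against t = 8 the 5 became 1, 0 and 1, with 2 without the weak arrays and 8 with median centring. For t = 48 against t = 24 the 3 became 1 with the groups alone and 1 with the second probe sets. The F-test count of 11 became 5 at 0.01 and 5 with no filter. Some of these settings use fewer arrays or a stricter threshold. The cause of the moves was not tested.

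Leaving out 1 array at a time gave 0 to 1 (induced against control at t = 48), 6 to 9 (t = 24 against t = 0), 2 to 3 (t = 48 against t = 0), 1 to 4 (t = 24 against t = 8), 2 to 3 (t = 48 against t = 24) and 6 to 9 (F-test). With the replicate block the counts were 3, 9, 4, 4, 2 and 8 in that order, and 0 for t = 8 and for control cells against t = 0, as without it.

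Over all genes, median centring moved the split of calls towards lower, to 542 higher and 621 lower (683 and 424 in the main setting) for induced against control at t = 48, 603 and 1031 (767 and 627) for t = 24 against t = 0, 1028 and 1620 (1278 and 1055) for t = 48 against t = 0, and 340 and 686 (445 and 365) for t = 24 against t = 8. It shifted the median of all genes by less than 0.1. With the compared groups alone, the all-gene counts were 619, 474, 1124 and 90 in the same order, against 1107, 1394, 2333 and 810, and they were 52, 0 and 263, against 270, 109 and 520, for t = 8, control t = 48 against t = 0 and t = 48 against t = 24. An adjusted p under 0.01 gave 449, 599, 1029, 269, 131, 41 and 283 for the same 7 comparisons. With no filter the counts were 692 (induced against control at t = 48), 922 (t = 24 against t = 0), 405 (t = 24 against t = 8) and 56 (control against t = 0), and without the weak arrays 490 (t = 24 against t = 8) and 339 (t = 48 against t = 24). Leaving out 1 array gave 650 to 825, 896 to 1108, 1508 to 1973, 398 to 568, 173 to 195, 33 to 88 and 358 to 463.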
